A study of Mus musculus with 8 samples.

Results

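The ADAM, ADAMTS and ADAMTS-like genes encode metalloproteinases and their non-catalytic relatives, and they are described here in stromal cells of the mouse small intestine. The members are Adamdec1 and every gene whose name is Adam followed by a digit, Adamts or Adamtsl, without pseudogenes. They number 58 of the 53801 genes counted: Adamdec1, 33 other ADAM genes, 19 ADAMTS genes and 5 ADAMTS-like genes. Stromal cells without CD45, which marks blood cells, or CD31, which marks endothelium, were sorted from mice named LTBRYFP by whether they carried YFP, and RNA was sequenced from 4 YFP+ and 4 YFP- libraries. YFP is a fluorescent protein, and the mouse name refers to the lymphotoxin beta receptor. The sources used here do not give the construct, the age and number of the animals, or any treatment. YFP- cells came from the same kind of mice and may hold several cell types. The title of each of the 8 samples gives the YFP sign that its description and genotype do not. Groups follow the description and genotype, and the deposited count columns are headed neg and pos as the descriptions are. Every direction given here would be the opposite if the titles were right instead. Nothing in the labels states that the 4 libraries of a fraction are separate animals, and the p-values speak only of the spread among these samples, which may be technical.

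ADAM proteins are membrane-anchored. Those with an active protease domain cut the ectodomains of growth factors, cytokine receptors, adhesion molecules and Notch from the cell surface. ADAMTS proteins are secreted, carry thrombospondin repeats, and cut versican and other proteoglycans, procollagens and microfibril-associated proteins. ADAMTS-like proteins have the thrombospondin repeats but no protease domain and sit in the matrix, several of them on fibrillin microfibrils. Adamdec1 encodes a short secreted member known from the intestine, where fibroblasts and mononuclear phagocytes have been reported to make it.

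The protease active site sets Adamdec1 apart in sequence, and the coding stretch is shown for it, its chromosomal neighbour Adam28, and 4 of the proteases described below. Each stretch is 33 bases of the GENCODE M21 coding sequence (GRCm38), 5′ to 3′, over the extended zinc-binding motif, and capitals mark the codons of the residues that hold the zinc ion.
Adamdec1: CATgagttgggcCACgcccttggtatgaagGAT
Adam28: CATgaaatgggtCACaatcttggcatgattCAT
Adam10: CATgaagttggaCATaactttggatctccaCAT
Adam17: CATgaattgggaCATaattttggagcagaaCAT
Adamts1: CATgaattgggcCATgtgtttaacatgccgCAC
Adamts3: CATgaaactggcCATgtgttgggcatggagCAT
Adamdec1 has GAT, an aspartate codon, where the others have the histidine codons CAT or CAC. A search of the coding sequences of all 58 members found the histidine form in 38, the aspartate form in Adamdec1 alone, and neither in 19. The 11 expressed members without a match were Adam5, Adam11, Adam22, Adam23, Adam32, Adamts8 and the 5 ADAMTS-like genes. A missing match says only that these letters were not found. Adam11, Adam22, Adam23 and the ADAMTS-like proteins are known as non-catalytic.

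Expression was set first, as at least 1 CPM (counts scaled to the same sequencing depth, using TMM-scaled totals) in at least 4 of the 8 libraries. By this line 37 members were expressed, 11 had counts but lay below it, and 10 had no count in any library. The expressed members were Adamdec1, 8 of 9 ADAMs known as sheddases, all 3 neural adhesion ADAMs, 3 of 21 other ADAMs, all 7 proteoglycan-cleaving ADAMTS, all 3 procollagen-cleaving ADAMTS, 7 of 9 other ADAMTS and all 5 ADAMTS-like genes. Below the line were Adam1b, Adam2, Adam3, Adam7, Adam18, Adam21, Adam26b, Adam28, Adam34, Adamts13 and Adamts16, with 1 to 121 counts over all libraries and at most 1.19 CPM in any of them. Listed at 0 were Adam1a, Adam4, Adam6a, Adam6b, Adam20, Adam24, Adam25, Adam26a, Adam29 and Adam39. Many of these ADAMs are known from testis and epididymis. Each YFP+ library held 23404630 to 29829232 counts, and each YFP- library 23272858 to 28688906.

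Levels differed widely among the expressed members when compared as CPM per kb of exon. Adamdec1 reached 2475 CPM per kb in YFP+ and 1421 CPM per kb in YFP-, and its mean over all libraries was 30.1-fold above the next member. Adamts4 followed at 61.1 CPM per kb in YFP+ and 68.2 CPM per kb in YFP-. Then came Adamts1 (52.3 and 65.6 CPM per kb in YFP+ and YFP-), Adamts17 (52.2 and 60.9), Adamts2 (48 and 50), Adamts10 (49.1 and 44.9), Adam19 (41.2 and 35.9) and Adam9 (36.5 and 37.2). Apart from Adamdec1, neighbours in this order lay within a narrow range, and their order changed between the fractions. By the mean over all libraries Adamts18 was the lowest, with 0.28 CPM per kb in YFP+ and 0.131 CPM per kb in YFP-, while within YFP+ Adam22 was the lowest at 0.0819 CPM per kb. Of the expressed members 8 (Adam8, Adam15, Adam17, Adam19, Adamts4, Adamts7, Adamts8 and Adamts9) share exonic sequence with a gene on the opposite strand, and since the strand setting of the counting is not given in the sources used here, their counts are uncertain to that extent.

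**Figure D1:**
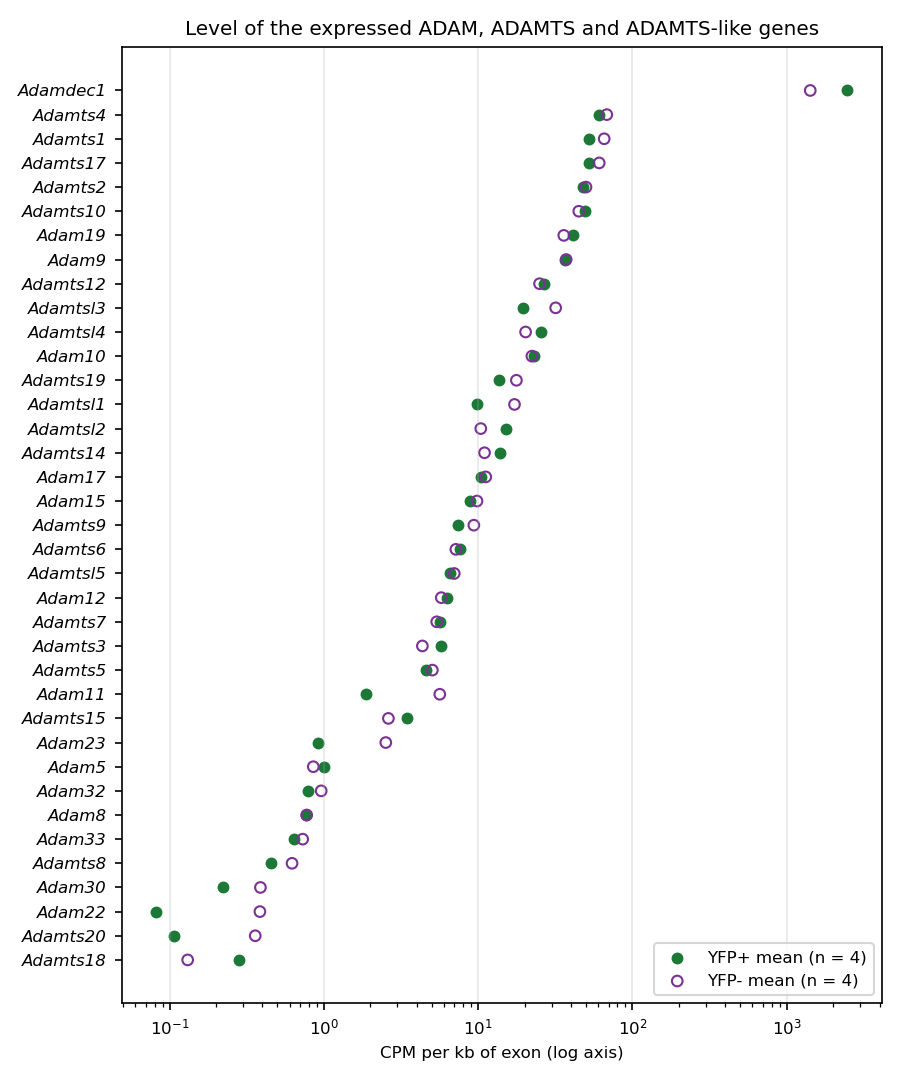
Mean level of the 37 expressed members in CPM per kb of exon on a log axis, with filled points for YFP+ and open points for YFP- (n = 4 each). Adamdec1, at 2475 in YFP+ and 1421 in YFP-, stands far to the right of all others, and the next 7 members lie close together between 35.9 and 68.2.

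Between the fractions, 1 member was higher and 7 were lower in YFP+ at an adjusted p under 0.05 in edgeR's unpaired quasi-likelihood test over 16354 genes. Adamdec1 rose, and Adam11, Adam22, Adam23, Adamts19, Adamts20, Adamtsl1 and Adamtsl3 fell. Without YFP+ replicate 1, 4 members passed lower, and without YFP- replicate 1, 2 passed higher. Tested members numbered 38, the 37 expressed ones and Adamts13, so the 8 calls were 21.1% of them, where 4.26% of all tested genes were called. The 7 lower members were 18.4% of those tested, where 3.34% of all tested genes were lower, and the 1 higher member was 2.63%, where 0.917% of all were higher. The median log2 fold change of YFP+ over YFP- was -0.09 over tested members and 0.00 over all tested genes. In 9 members the 4 values of one fraction did not overlap the 4 of the other, 1 higher (3.78% of all tested genes) and 8 lower (5.86% of all). These 9 were the called members and Adam30, which had 0.447, 0.987, 0.852 and 0.832 CPM in YFP+ replicates 1 to 4 against 1.15, 1.09, 1.42 and 1.81 CPM in YFP- replicates 1 to 4 and did not pass (edgeR adjusted p = 0.453). Adam30 met the expression line through its 4 YFP- libraries alone, so its lack of overlap follows in part from that line and is given as a description. Adam22 and Adamts20 also met it in all 4 YFP- libraries, and in 2 YFP+ libraries. In bulk RNA a smaller share of the cells that make a transcript and less of it per cell cannot be told apart.

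Libraries with the same replicate number deviated from their group means together, and with the number as a block in edgeR 7 members passed higher and 10 passed lower. The block added Adam19, Adamts3, Adamts14, Adamts15, Adamtsl2 and Adamtsl4 on the higher side and Adamts1, Adamts9 and Adamts17 on the lower side, and 0 calls were lost. All of these added members also have an adjusted p under 0.05, in the same direction, in the authors' deposited DESeq2 results. Within the numbers, 10 members were higher in YFP+ in 4 of 4 pairs (14% of all tested genes) and 13 were lower in 4 of 4 (16.2% of all). Members called with the block were 44.7% of those tested against 11.5% of all tested genes, 18.4% on the higher side against 3.65% of all tested genes, and 26.3% on the lower side against 7.85% of all.

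**Figure D2:**
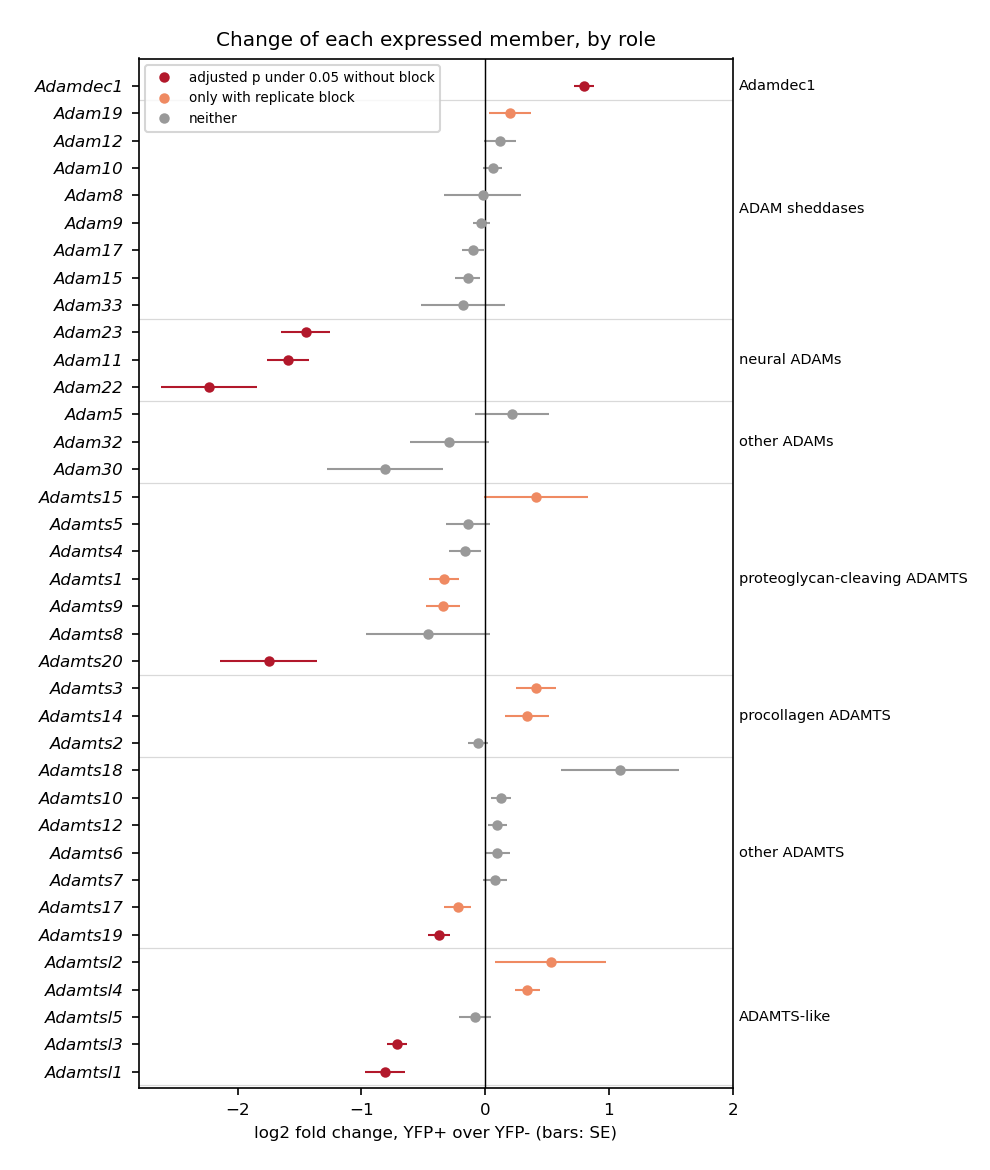
Log2 fold change of YFP+ over YFP- for each expressed member with its SE (edgeR without block, 4 against 4 libraries), grouped by role and coloured by whether it passed without the block, only with it, or in neither. The 3 neural ADAMs and Adamts20 lie farthest to the left, from -1.45 to -2.23, and Adamdec1 at 0.80 has a short error bar.

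Adamdec1 was the member with the highest level and the only one called higher without the block. It measured 5810, 5926, 6562 and 5881 CPM in YFP+ replicates 1 to 4, against 3335, 3347, 3677 and 3521 CPM in YFP- replicates 1 to 4. Every YFP+ library was far above every YFP- library, and replicate 3 was the highest of its fraction in both. The mean was 6045 ± 348 CPM in YFP+ against 3470 ± 162 CPM in YFP- (± SD, n = 4 per fraction), 1.74-fold, with a log2 fold change of 0.80 (SE 0.08) and an edgeR adjusted p of 1.56e-05. Leaving out 1 library at a time gave log2 fold changes from 0.76 to 0.84. The authors' deposited table gives a log2 fold change of 0.808.

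Of all counts in a library, Adamdec1 alone took 0.589%, 0.616%, 0.672% and 0.592% in YFP+ replicates 1 to 4, against 0.324%, 0.334%, 0.359% and 0.338% in YFP- replicates 1 to 4. The share averaged 0.617% ± 0.0382 in YFP+ against 0.339% ± 0.0146 in YFP- (± SD, n = 4 per fraction; exact permutation test, two-sided p = 0.0286, the smallest that 4 against 4 allows, and 0.0571 adjusted over 2 such tests). The other 57 members together took 0.413% ± 0.02 in YFP+ against 0.429% ± 0.00609 in YFP- (± SD, n = 4 per fraction; exact permutation test, two-sided p = 0.2). Both tests of shares were unpaired. The mean share of Adamdec1 was above that of all its relatives together in YFP+ and below it in YFP-. Among nuclear protein-coding genes with a count it ranked 9 of 18392 by mean CPM and 3 by CPM per kb. Of the 150 genes called higher in YFP+ it had the highest mean level and the largest gain, 2575 CPM, which was 21.2% of their summed gain of 12141 CPM.

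Adamdec1 (ENSMUSG00000022057) lies on the minus strand at chr14:68563380-68582095 (GRCm38), between Adam7 (chr14:68497336-68533741) and Adam28 (chr14:68606027-68655842), both also on the minus strand. Its neighbours were close to silent. Adam28, a protease known from lymphocytes and epididymis, had 4, 0, 1 and 5 counts in YFP+ replicates 1 to 4, against 1, 0, 4 and 3 counts in YFP- replicates 1 to 4. Adam7, known from the epididymis, had 9, 11, 5 and 3 counts in YFP+ replicates 1 to 4, against 5, 5, 7 and 0 counts in YFP- replicates 1 to 4. Neither reached 0.5 CPM in any library, while Adamdec1 was at 3335 CPM or more in all of them. Since mononuclear phagocytes can also make Adamdec1, markers of blood cells were summed over 10 genes: the sum was 344, 45.6, 135 and 209 CPM in YFP+ replicates 1 to 4, against 308, 87.3, 298 and 199.6 CPM in YFP- replicates 1 to 4. Most of this sum came from Igha and Jchain, which plasma cells express. The phagocyte genes were low: Lyz2 ran from 2.75 to 3.64 CPM in YFP+ against 3.1 to 5.48 CPM in YFP-, and Csf1r from 1.81 to 3.13 CPM in YFP+ against 2.3 to 5.15 CPM in YFP-. None of the 7 tested blood genes passed without the block, and Cd74 passed lower with it (log2 fold change -0.72, edgeR adjusted p = 0.000584). The part of phagocyte RNA in the level of Adamdec1 was not tested. Ptprc, which encodes CD45, ran from 0.535 to 6.22 CPM in YFP+ against 0.907 to 5.66 CPM in YFP-.

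The 3 ADAMs that act as non-catalytic adhesion proteins in the nervous system had the largest falls together with Adamts20. Adam11, a brain-expressed ADAM, measured 13.1, 10.5, 10.4 and 8.46 CPM in YFP+ replicates 1 to 4, against 29.8, 43.8, 27.5 and 26.8 CPM in YFP- replicates 1 to 4. Its log2 fold change was -1.59 (SE 0.17, edgeR adjusted p = 5.87e-05). The fractions did not overlap, and YFP- replicate 2 was the highest. Adam22, a receptor for the secreted LGI proteins at synapses and in peripheral nerve, measured 0.67, 1.19, 0.688 and 2.15 CPM in YFP+ replicates 1 to 4, against 5.08, 8.29, 4.06 and 4.68 CPM in YFP- replicates 1 to 4. The log2 fold change of Adam22 was -2.23 (SE 0.39, edgeR adjusted p = 0.00255), and YFP- replicate 2 was again the highest. Adam23, which also binds LGI proteins, measured 18.2, 15.4, 15.2 and 17.2 CPM in YFP+ replicates 1 to 4, against 37.2, 67.3, 43.7 and 32.5 CPM in YFP- replicates 1 to 4. For Adam23 the log2 fold change was -1.45 (SE 0.20, edgeR adjusted p = 0.00153), with tightly grouped YFP+ values and the same YFP- library at the top. All 3 kept their calls when any 1 library was left out.

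Adamts20, a versican-cleaving protease known in mice from the belted coat mutation, had low values with the same pattern. It measured 0.67, 1.4, 1.15 and 0.624 CPM in YFP+ replicates 1 to 4, against 3.23, 4.4, 3.28 and 2.03 CPM in YFP- replicates 1 to 4. The fractions did not overlap, and the log2 fold change was -1.75 (SE 0.39, edgeR adjusted p = 0.0155). The call was lost without YFP- replicate 2 (edgeR adjusted p = 0.0594) or YFP+ replicate 1 (edgeR adjusted p = 0.0528) and passed with the block (edgeR adjusted p = 0.0016).

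Markers of enteric glia moved in the same direction as these 4 genes. Summed over 12 markers, they reached 9.91, 11.9, 13.5 and 12.1 CPM in YFP+ replicates 1 to 4, against 164, 245, 151 and 156 CPM in YFP- replicates 1 to 4, with the highest sum in YFP- replicate 2. Of the 12 markers, 11 fell, with a median log2 fold change of -3.56 over the list. Among them Foxd3, a defining transcription factor of glia, averaged 0.0639 ± 0.0879 CPM in YFP+ against 5.72 ± 1.48 CPM in YFP- (± SD, n = 4 per fraction; edgeR adjusted p = 1.01e-05). Foxd3 reached 1 CPM in the 4 YFP- libraries alone. It was therefore tested only through the fraction where it was high, and its values are given as a description. Neuronal markers, 7 in all, summed to between 6.2 and 7.24 CPM in YFP+ and between 5.15 and 21.3 CPM in YFP-, again highest in YFP- replicate 2, with 1 of 4 tested genes lower and Tubb3 listed at 0. Epithelial markers, 12 in all, summed to between 20.6 and 28.7 CPM in YFP+ and between 47.8 and 93.9 CPM in YFP-, with 4 lower. Within YFP-, the epithelial, smooth muscle, mural and mesothelial sums were also highest in replicate 2, so this peak was not particular to glia or neurons. The fibroblast, endothelial and blood cell sums were highest in other YFP- libraries. The part of glial, neuronal or epithelial RNA in the falls of Adam11, Adam22, Adam23 and Adamts20 was not tested.

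**Figure D3:**
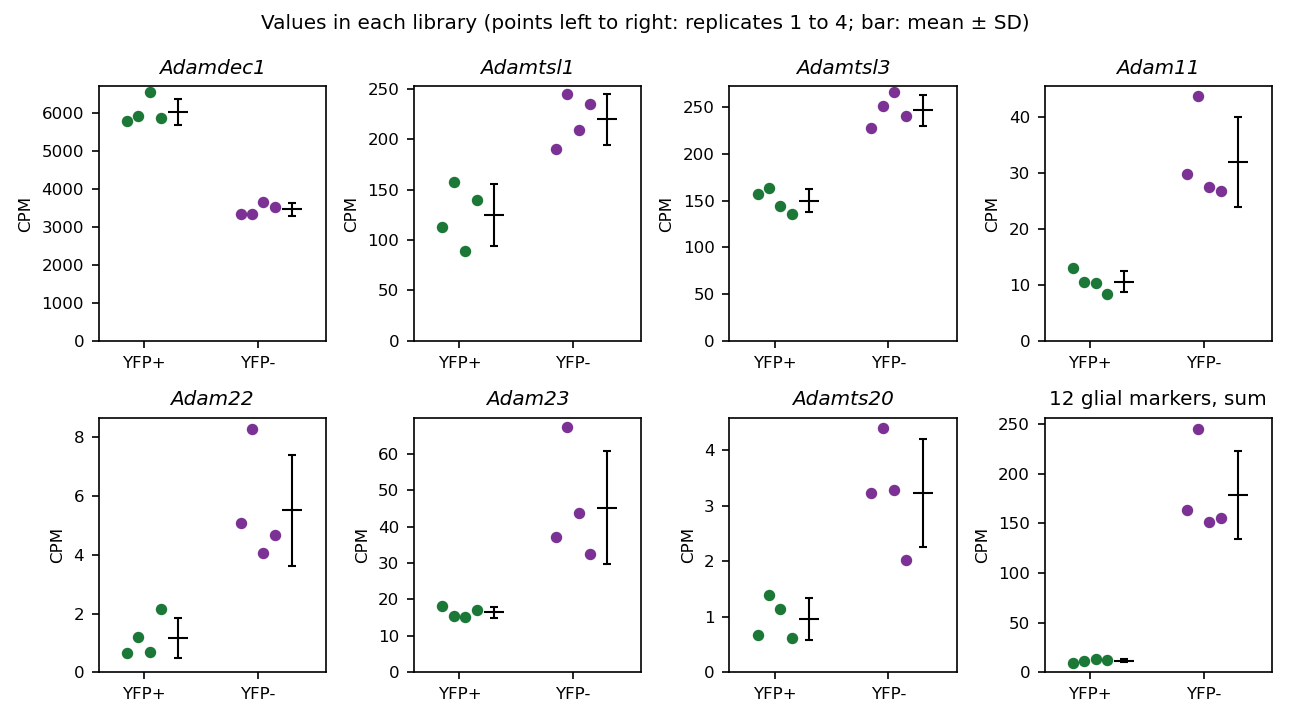
CPM of 7 called members and the sum of 12 enteric glial markers in each library, YFP+ left and YFP- right, with points for replicates 1 to 4 from left to right and bars for mean ± SD (n = 4). Fractions do not overlap in any panel, and YFP- replicate 2 is the highest point for Adam11, Adam22, Adam23, Adamts20, Adamtsl1 and the glial sum but not for Adamdec1 or Adamtsl3.

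The sheddase ADAMs showed little difference between the fractions, and 0 of the 8 expressed ones passed without the block. Adam10, the sheddase of Notch and cadherins, measured 107, 115, 116 and 117 CPM in YFP+ replicates 1 to 4, against 112, 111, 114 and 100 CPM in YFP- replicates 1 to 4 (log2 fold change 0.06, SE 0.08, edgeR adjusted p = 0.802). Adam17, which releases TNF and EGF-receptor ligands, measured 72.7, 71.6, 77.2 and 79.2 CPM in YFP+ replicates 1 to 4, against 76, 67.8, 89.9 and 87.7 CPM in YFP- replicates 1 to 4 (log2 fold change -0.10, SE 0.09, edgeR adjusted p = 0.697). Adam9 measured 143, 148, 156 and 155 CPM in YFP+ replicates 1 to 4, against 154, 144, 155 and 160.4 CPM in YFP- replicates 1 to 4 (log2 fold change -0.03, SE 0.07, edgeR adjusted p = 0.917). In each of the 3 the fractions overlapped, and the SEs leave room for small differences in either direction.

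Adam19, or meltrin beta, known for processing neuregulins and for its part in heart development, was the sheddase with the highest mean CPM. It measured 276, 374, 290.2 and 233 CPM in YFP+ replicates 1 to 4, against 237, 327, 255 and 204 CPM in YFP- replicates 1 to 4. The fractions overlapped, but replicate 2 was the highest and replicate 4 the lowest in both, and YFP+ was above YFP- within each number. The log2 fold change was 0.20 without the block (edgeR adjusted p = 0.643) and 0.20 with it (SE 0.05, edgeR adjusted p = 0.0097). Adam12 and Adam15, both broadly expressed, averaged 66.2 ± 11.3 and 54.8 ± 6.23 CPM in YFP+ against 61 ± 10.7 and 60.4 ± 4.12 CPM in YFP- (± SD, n = 4 per fraction). Adam8 and Adam33 stayed below 6 CPM in every library, and none of these 4 passed in either fit. The other expressed ADAMs, Adam5, Adam30 and Adam32, stayed below 4 CPM and did not pass either.

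Among the proteoglycan-cleaving ADAMTS only Adamts20 passed without the block. Adamts4, known as an aggrecanase, had the second level per kb in the family, with 332, 236, 309 and 299 CPM in YFP+ replicates 1 to 4, against 363, 251, 325 and 374 CPM in YFP- replicates 1 to 4. It was lower in YFP+ within each number, yet passed neither without the block (log2 fold change -0.16, SE 0.13, edgeR adjusted p = 0.628) nor with it (edgeR adjusted p = 0.0715). Adamts1, which cuts versican and aggrecan, measured 294, 231, 294 and 289 CPM in YFP+ replicates 1 to 4, against 358, 263, 369.9 and 399 CPM in YFP- replicates 1 to 4. Replicate 2 was the lowest in both fractions, and YFP- replicate 2 fell among the YFP+ values. The log2 fold change of Adamts1 was -0.33 without the block (SE 0.12, edgeR adjusted p = 0.18) and -0.32 with it (SE 0.05, edgeR adjusted p = 0.000158), and it also passed without YFP- replicate 2 (edgeR adjusted p = 0.0176).

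Adamts9, a versican protease active in development, measured 138, 107, 79.5 and 121 CPM in YFP+ replicates 1 to 4, against 152, 135, 133 and 145 CPM in YFP- replicates 1 to 4. Only YFP+ replicate 1 reached into the YFP- range (log2 fold change -0.34, edgeR adjusted p = 0.231 without the block, and -0.37, edgeR adjusted p = 0.00423 with it). Adamts15, also a versican protease, went the other way, with 53.5, 24.6, 20.6 and 45.5 CPM in YFP+ replicates 1 to 4, against 34, 16.4, 19.4 and 38.6 CPM in YFP- replicates 1 to 4. Replicates 1 and 4 were high and replicates 2 and 3 low in both fractions. Its edgeR adjusted p was 0.729 without the block and 0.0126 with it (log2 fold change 0.39, SE 0.10), and the call with the block was lost when both libraries numbered 2 were removed. Adamts5, the other known aggrecanase, averaged 49.6 ± 13.3 CPM in YFP+ against 54.5 ± 8.39 CPM in YFP-, and Adamts8 averaged 2.09 ± 0.744 CPM in YFP+ against 2.87 ± 2.34 CPM in YFP- (± SD, n = 4 per fraction), neither passing in either fit.

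The procollagen N-proteinases split by gene. Adamts2, the main one of skin and tendon, was abundant and gave no call, with 444, 466, 464 and 417 CPM in YFP+ replicates 1 to 4, against 479, 438, 497 and 452 CPM in YFP- replicates 1 to 4 (log2 fold change -0.06, SE 0.08, edgeR adjusted p = 0.789). Adamts14 measured 95.3, 63.5, 77.4 and 53.6 CPM in YFP+ replicates 1 to 4, against 68.9, 49.3, 62.7 and 48.1 CPM in YFP- replicates 1 to 4. Adamts3, also known for activating the lymphatic growth factor VEGF-C, measured 37.6, 24.3, 26.5 and 36.9 CPM in YFP+ replicates 1 to 4, against 28.6, 19.8, 21.0 and 25.2 CPM in YFP- replicates 1 to 4. For Adamts14 and Adamts3 the fractions overlapped, but YFP+ was the higher within each of the 4 numbers. The log2 fold change of Adamts14 was 0.34 without the block (edgeR adjusted p = 0.437) and 0.32 with it (SE 0.07, edgeR adjusted p = 0.00244). For Adamts3 it was 0.41 without the block (edgeR adjusted p = 0.211) and 0.40 with it (SE 0.10, edgeR adjusted p = 0.00688).

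Promoters of Adamts3 (chr5:89883335-89883584) and Adamts14 (chr10:61273420-61273669), the pair of procollagen N-proteinases that passed together with the block, are shown as the 250 bases before the annotated start, from RefSeq on GRCm38.p6, both from the minus strand and written 5′ to 3′. They were chosen after the values were seen. Capitals mark GGGCGG, the GC box, or its reverse complement CCGCCC.
Adamts3: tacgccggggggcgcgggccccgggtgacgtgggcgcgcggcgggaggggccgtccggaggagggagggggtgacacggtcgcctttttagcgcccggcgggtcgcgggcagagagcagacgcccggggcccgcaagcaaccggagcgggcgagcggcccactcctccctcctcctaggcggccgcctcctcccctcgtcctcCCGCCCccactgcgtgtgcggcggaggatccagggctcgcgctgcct
Adamts14: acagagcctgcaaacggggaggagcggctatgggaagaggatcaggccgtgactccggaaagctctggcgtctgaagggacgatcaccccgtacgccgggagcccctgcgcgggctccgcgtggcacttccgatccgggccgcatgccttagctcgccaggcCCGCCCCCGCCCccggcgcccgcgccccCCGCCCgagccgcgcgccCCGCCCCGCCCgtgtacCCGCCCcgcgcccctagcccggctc
Adamts14 holds 6 matches, 2 of them overlapping, and Adamts3 holds 1, and the GC content of the windows is 76.4% in Adamts14 and 78% in Adamts3, against a median of 52.4% over all 32851 windows. Windows with GGGCGG on either strand were 32.7% of all windows and 15 of the 20 expressed members with an entry. The same search found TATAAA in 2 of these 20 (12.4% of all windows) and ACAAAG in 1 (16.5%), on either strand. A match is a description of letters only.

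In the remaining ADAMTS group, Adamts19 alone fell without the block. Adamts19, known from human heart valve disease, measured 184, 205, 186 and 195 CPM in YFP+ replicates 1 to 4, against 215, 269, 265 and 245 CPM in YFP- replicates 1 to 4. The fractions did not overlap (log2 fold change -0.37, SE 0.09, edgeR adjusted p = 0.0199, and 4.94e-05 with the block). Within YFP-, Adamts19 was highest in replicate 2, as were the glial and several other marker sums. Within YFP+, Adamts19 was again highest in replicate 2, but the glial marker sum in replicate 3. The part of glial RNA in this fall was not tested. The call without the block was lost without YFP- replicate 2, 3 or 4 or YFP+ replicate 1 or 3, with edgeR adjusted p between 0.0528 and 0.0954. Adamts17 and Adamts10 are both known from human disorders of fibrillin microfibrils. Adamts17 measured 485, 369, 345 and 422 CPM in YFP+ replicates 1 to 4, against 529.7, 423, 457 and 482 CPM in YFP- replicates 1 to 4, lower in YFP+ within each number (log2 fold change -0.22, edgeR adjusted p = 0.341 without the block, and -0.23, edgeR adjusted p = 0.00371 with it). Adamts10 measured 443, 408, 388 and 381 CPM in YFP+ replicates 1 to 4, against 391, 369, 362 and 359 CPM in YFP- replicates 1 to 4, higher in YFP+ within each number but passing neither without the block (log2 fold change 0.13, edgeR adjusted p = 0.482) nor with it (edgeR adjusted p = 0.103). Adamts12, Adamts6 and Adamts7 had log2 fold changes from 0.08 to 0.10 and did not pass. Adamts18 had the largest positive estimate of the family, 1.09 (SE 0.48, edgeR adjusted p = 0.282), on 2.85 ± 1.47 CPM in YFP+ against 1.34 ± 0.688 CPM in YFP- (± SD, n = 4 per fraction).

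The ADAMTS-like genes were all expressed, and with the block 2 passed higher and 2 lower. Adamtsl1, or punctin, fell, with 113, 158, 88.9 and 139.7 CPM in YFP+ replicates 1 to 4, against 190.0, 245, 209 and 235 CPM in YFP- replicates 1 to 4. Every YFP+ value was below every YFP- value (log2 fold change -0.81, SE 0.16, edgeR adjusted p = 0.0166, and 7.44e-06 with the block). That call was lost without YFP- replicate 2, YFP- replicate 4 or YFP+ replicate 1, with edgeR adjusted p from 0.0559 to 0.0591. Adamtsl3, or punctin-2, measured 157, 163, 144 and 136 CPM in YFP+ replicates 1 to 4, against 228, 251, 266 and 240.3 CPM in YFP- replicates 1 to 4. Its groups were well apart with little spread in either (log2 fold change -0.71, SE 0.08, edgeR adjusted p = 8.81e-05), and the call held without any 1 library. Within YFP-, Adamtsl1 was highest in replicate 2, as the glial and several other marker sums were, and Adamtsl3 in replicate 3. Within YFP+, Adamtsl1 and Adamtsl3 were highest in replicate 2 and the glial marker sum in replicate 3. The part of glial RNA in these falls was not tested.

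Adamtsl2 and Adamtsl4, both known to bind fibrillin microfibrils, passed with the block but not in the same fit without it. Adamtsl2 measured 185, 62.2, 103 and 131 CPM in YFP+ replicates 1 to 4, against 130.2, 46.2, 64.4 and 92.5 CPM in YFP- replicates 1 to 4. Replicate 1 was the highest and replicate 2 the lowest in both fractions, and the order 1, 4, 3, 2 was the same in each. The log2 fold change of Adamtsl2 was 0.53 in both fits, with an SE of 0.45 without the block (edgeR adjusted p = 0.661) and 0.06 with it (edgeR adjusted p = 1.01e-06). Adamtsl4 measured 126, 102, 104 and 99.4 CPM in YFP+ replicates 1 to 4, against 102, 76.3, 77.8 and 85.3 CPM in YFP- replicates 1 to 4. YFP- replicate 1 alone reached into the YFP+ range (log2 fold change 0.34, edgeR adjusted p = 0.0855 without the block, 0.000337 with it, and 0.016 without YFP- replicate 1). Adamtsl5 averaged 31.2 ± 6.31 CPM in YFP+ against 33 ± 2.22 CPM in YFP- (± SD, n = 4 per fraction) and did not pass in either fit.

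**Figure D4:**
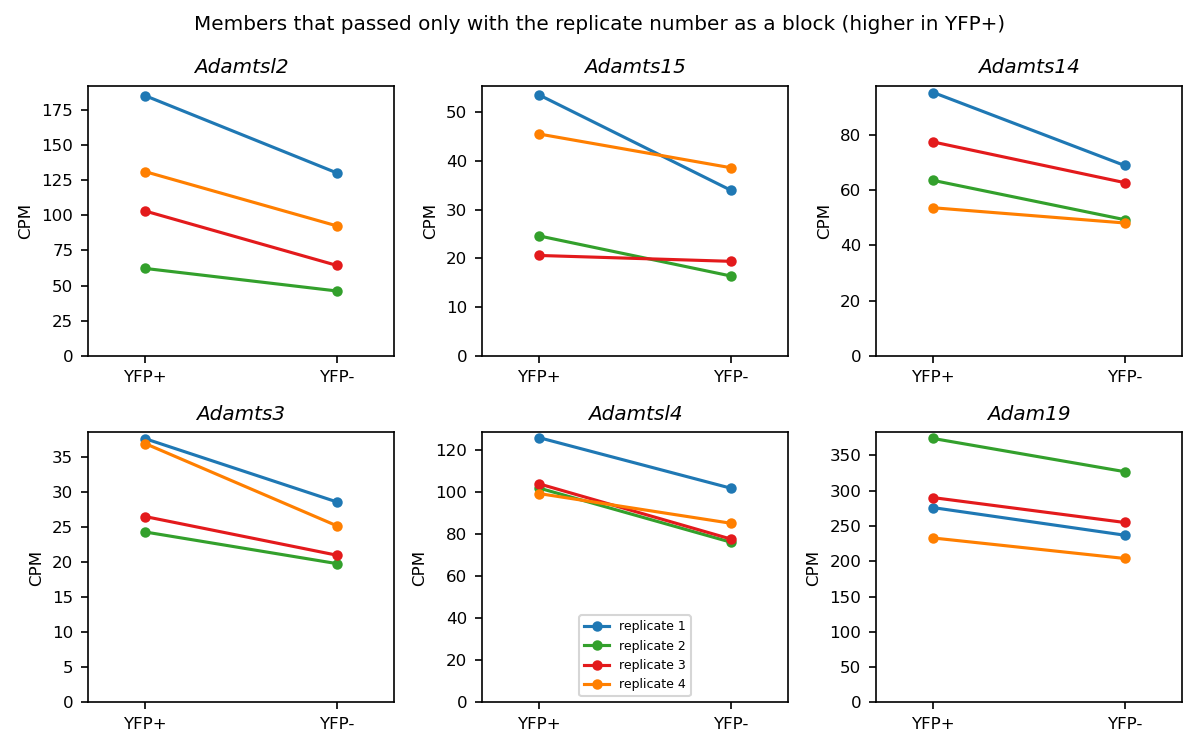
CPM of the 6 members that were called higher in YFP+ in edgeR with the replicate number as a block but not in the same fit without it. YFP+ is left and YFP- right, with a line joining the libraries of each number. Every line slopes down to the right, and for Adamtsl2 the line of replicate 2 runs below all others, at 62.2 in YFP+ and 46.2 in YFP-.

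The variation of these genes lay partly between replicate numbers and partly between the fractions. As a description, the sum of squares of log2(CPM + 0.5) was divided into a part between YFP+ and YFP- and a part between the 4 numbers. The numbers held more than 50% of it in 21 of the 37 expressed members and the fractions in 10. With 4 numbers against 2 fractions, the numbers take on average the larger part even where neither differs. The same shares were not computed over all tested genes, so these counts do not set the members apart. Adamdec1 was at one end, with 97.5% between fractions and 2.31% between numbers, next to Adamtsl3 (93.8% and 2.57%) and Adam11 (90.4% and 5.68%). With the largest shares between numbers were Adam5 (11.2% between fractions and 88.3% between numbers), Adam19 (14.1% and 85.9%), Adamts5 (7.95% and 85.8%), Adamts8 (2.11% and 84.8%), Adamts15 (11.2% and 84.7%), Adamts4 (12% and 82.7%) and Adamtsl2 (18% and 81.4%). In Adamtsl2, Adamts15, Adamts1 and Adamts4 replicate 2 was low in both fractions or next to lowest, while Adam19 and Adamts5 were highest there. Smooth muscle markers also differed by number: 8 markers summed to 579.7, 878, 678 and 362 CPM in YFP+ replicates 1 to 4, against 407, 465, 438 and 187 CPM in YFP- replicates 1 to 4, with 2 higher in YFP+ without the block and 7 with it. What the numbers share is not stated, and the part of smooth muscle RNA in the members that passed only with the block was not tested. With the replicate number as a block and both libraries numbered 2 removed, 6 members passed higher and 10 passed lower.

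**Figure D5:**
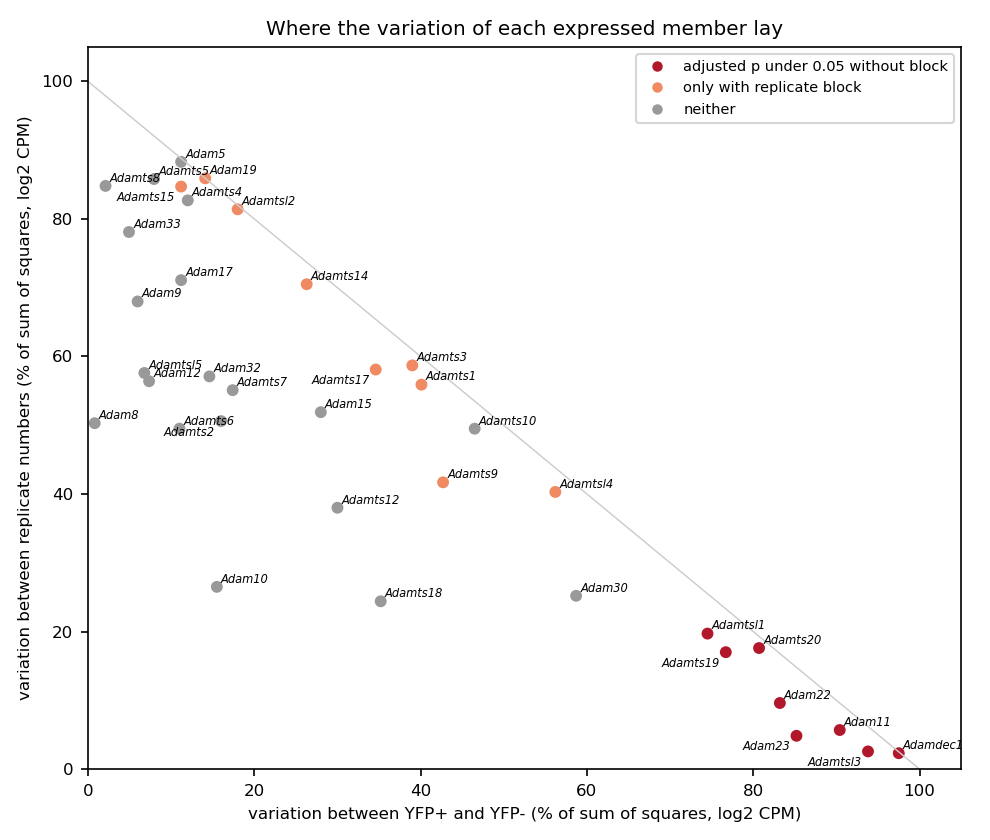
Share of each expressed member's sum of squares of log2 CPM between YFP+ and YFP- (horizontal) and between replicate numbers (vertical), in percent, with the grey line where both add to 100. Members called without the block sit at the lower right, led by Adamdec1 at 97.5 and 2.31, and those that passed only with the block, such as Adam19 and Adamtsl2, sit mostly at the upper left close to the line.

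Genes that act with these proteases were counted from lists of inhibitors, activating convertases, partners and substrates. Of 57 genes listed, 48 were tested, and 4 were higher and 5 lower in YFP+, where 0.917% of all tested genes were higher and 3.34% lower. With the block 11 were higher and 13 lower, where 3.65% of all were higher and 7.85% lower. The median log2 fold change of the lists was -0.02, against 0.00 over all tested genes. Of the 4 tested inhibitors 1 fell: Timp3, the matrix-bound inhibitor of Adam17 and of the aggrecanases, averaged 276 ± 28.1 CPM in YFP+ against 379 ± 21.4 CPM in YFP- (± SD, n = 4 per fraction; log2 fold change -0.46, SE 0.09, edgeR adjusted p = 0.00522). With the block Timp2 (log2 fold change -0.19, edgeR adjusted p = 0.0119) and Reck, a membrane-anchored inhibitor (-0.30, edgeR adjusted p = 0.0014), also passed lower. None of the 4 convertases that remove prodomains passed, and Pcsk5, their most abundant, averaged 850.2 ± 99.5 CPM in YFP+ against 875 ± 42.1 CPM in YFP- (± SD, n = 4 per fraction). The 3 genes of the iRhom complex, which brings Adam17 to the surface, gave 0 calls, and Rhbdf2 was higher with the block (log2 fold change 0.28, edgeR adjusted p = 0.0344). Among 5 tested TspanC8 tetraspanins, which guide Adam10, Tspan15 fell (0.898 ± 0.475 CPM in YFP+ against 5.01 ± 1.84 CPM in YFP-, ± SD, n = 4 per fraction; edgeR adjusted p = 0.00119), while the most abundant, Tspan5, averaged 50.3 ± 10.2 CPM in YFP+ against 49.6 ± 5.59 CPM in YFP-. Tspan15 reached 1 CPM in 5 of the 8 libraries, among them every YFP- library, and its source was not tested.

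Of 18 tested membrane proteins known to be shed, 2 rose and 3 fell (6 and 3 with the block). Nrg1, a neuregulin, averaged 42 ± 8.7 CPM in YFP+ against 23.5 ± 2.33 CPM in YFP- (± SD, n = 4 per fraction; log2 fold change 0.84, SE 0.14, edgeR adjusted p = 0.00183). Cxcl16, a membrane chemokine cut by Adam10, averaged 134 ± 9.87 CPM in YFP+ against 92.2 ± 7.05 CPM in YFP- (± SD, n = 4 per fraction; log2 fold change 0.54, SE 0.08, edgeR adjusted p = 0.00113). Falls were found for Hbegf, an EGF-receptor ligand (log2 fold change -1.18, edgeR adjusted p = 0.000194), Cdh2, or N-cadherin (-1.74, edgeR adjusted p = 0.000465), and Notch1 (-0.34, edgeR adjusted p = 0.0301, lost without any 1 of 7 of the 8 libraries). Cdh2 averaged 13.1 ± 4.82 CPM in YFP-, where the glial markers were also high, and its source was not tested. Of 14 tested matrix substrates 2 rose and 0 fell (4 and 6 with the block). Fn1, or fibronectin, averaged 4362 ± 229 CPM in YFP+ against 3097 ± 207 CPM in YFP- (± SD, n = 4 per fraction; log2 fold change 0.49, SE 0.08, edgeR adjusted p = 0.00168), and Nid2, a basement membrane nidogen, rose by 0.60 on the log2 scale (SE 0.11, edgeR adjusted p = 0.00392). Versican, encoded by Vcan and the shared substrate of several members, was chosen after its values were seen. It averaged 576 ± 78.7 CPM in YFP+ against 454 ± 53.6 CPM in YFP- (± SD, n = 4 per fraction). In edgeR Vcan did not pass without the block (adjusted p = 0.0925) and passed with it (log2 fold change 0.34, edgeR adjusted p = 1.38e-05). DESeq2 without the block also called it higher (DESeq2 adjusted p = 0.0423). Col3a1, the most abundant substrate and a procollagen cut by Adamts2, averaged 16048 ± 984 CPM in YFP+ against 18831 ± 1426 CPM in YFP- (± SD, n = 4 per fraction; edgeR adjusted p = 0.178 without the block and 0.000868 with it, log2 fold change -0.23 in both).

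As a check of the sorted cells, 8 fibroblast markers summed to between 35856 and 39600 CPM in YFP+ and between 40761 and 48070 CPM in YFP-. Of these 8, Lum (edgeR adjusted p = 0.00372) and Dcn (edgeR adjusted p = 0.043) fell and Mmp2 rose (edgeR adjusted p = 0.0317), with 1 higher and 5 lower with the block. Without the block, Lum kept its call when any 1 library was left out. The calls of Dcn and Mmp2 were lost without most of the single libraries, with edgeR adjusted p up to 0.157 and 0.132. Pdgfra ran from 877 to 1183 CPM in YFP+ against 1007 to 1101 CPM in YFP-. Pecam1, which encodes CD31, ran from 2.63 to 7.07 CPM in YFP+ against 5.11 to 11.8 CPM in YFP-. The 7 endothelial markers summed to between 37.4 and 50.7 CPM in YFP+ and between 56.1 and 88.5 CPM in YFP-. Most of this sum came from Tek, which averaged 27.3 CPM in YFP+ against 46.4 CPM in YFP-. Tek was lower (edgeR adjusted p = 0.0112), and its call was lost without YFP+ replicate 3 (edgeR adjusted p = 0.0525). The 6 mural markers summed to between 1203 and 1416 CPM in YFP+ and between 1075 and 1249 CPM in YFP-, with Cspg4 higher (edgeR adjusted p = 0.0307) and Mcam lower (log2 fold change -1.89, edgeR adjusted p = 0.000417). The call of Cspg4 was lost without most of the single libraries, with edgeR adjusted p up to 0.113. The 5 mesothelial markers summed to between 4.42 and 4.85 CPM in YFP+ and between 6.53 and 8.84 CPM in YFP-. Among the cell type marker lists, the fibroblast sum was the highest in every library. Most of the fibroblast sum came from Col1a1, Col1a2 and Col3a1, and the lists differ in the number and kind of their genes. Their sums therefore do not rank the cell types by share. The blood cell sum reached 344 CPM in YFP+ and 308 CPM in YFP-, mostly Igha and Jchain.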

How the data were processed

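RNA was measured in 8 libraries, 4 YFP+ and 4 YFP-. The submitters' processing notes name GRCm38 (mm10), STAR 2.7.3a, cutadapt 3.4, DESeq2 and featureCounts 2.0.1. The sources used here give neither the DESeq2 version nor the strand setting. Per the labels' protocols, libraries came from a stranded total RNA kit for small inputs. The authors' deposited table holds whole-number counts per gene and library. It also gives the authors' log2 fold changes and adjusted p-values. The normalised columns in the deposited table, which are counts scaled and rounded by the authors and so treated as a score rather than as raw counts, were not used.

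Counts were tested in R 4.3.3 with edgeR 4.0.16 (filterByExpr, TMM, robust quasi-likelihood F test, no block, Benjamini-Hochberg over 16354 genes, threshold 0.05), which was tested on simulated data. Of all genes, 23010 had no count. No pair of libraries of the same fraction was a duplicate within sampling noise, and pairs across the fractions were not checked. Alternatives were other scalings and filters, DESeq2 1.42.0, limma-voom (limma 3.58.1), the block, scaling without genes of mitochondrial and ribosomal RNA, and leaving out each library. Added after seeing the data were DESeq2 with the block, and leaving out both libraries numbered 2. Shares were compared by an exact permutation test (scipy 1.17.1).

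Same-numbered libraries deviated together (correlations of 0.60, 0.64, 0.38 and 0.57 across 5258 genes, against -0.42 to 0.05 for different numbers), so the numbers were taken to pair the samples. Only the fits with the block use this pairing. The edgeR test without the block, set because no label states a pairing, and the permutation test of shares ignore it. DESeq2 with the block differed from the deposited log2 fold changes by a median of 0.000256, and without it by 0.049.

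Members and lists were chosen with earlier results of these data known. The rule for named genes gave each library's values for Adamdec1, Adam10, Adam17, members passing with or without the block and the 8 highest per kb, and from each list up to 3 called genes and the most abundant. Coordinates, exon lengths and coding sequences are from GENCODE M21 (GRCm38), and promoters from RefSeq, which had entries for 31 members.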

Additional observations from a re-analysis of the deposited data

Results flagged for a closer look

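Of 50 sets of 4 libraries checked for 1 value far from the other 3, 2 were flagged, where chance gives about 2.5 at 1 in 20. Adamdec1 in YFP+ replicate 3 stood at 6562 CPM, above the other YFP+ libraries at 5810 to 5926 CPM, and without that library the log2 fold change was 0.76 (edgeR adjusted p = 0.000162). Adamts1 in YFP+ replicate 2 stood at 231 CPM, below the other YFP+ libraries at 289 to 294 CPM, and YFP- replicate 2 was the lowest of its fraction too at 263 CPM.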

How the results depend on the processing

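Of the members' calls without the block, those of Adamdec1, Adam11, Adam22, Adam23 and Adamtsl3 held under every alternative, and those of Adamts19, Adamts20 and Adamtsl1 were lost only when single libraries were left out. The median log2 fold change of all tested genes moved by less than 0.1 under every scaling. The largest shift came from the replicate block, which changed no call in direction: over all genes 597 passed higher and 1283 lower (DESeq2 with replicate block 511 and 1218, edgeR with the block and both libraries numbered 2 removed 500 and 1050), against 150 and 547 without it. Members higher numbered 1 without the block, 7 with it in edgeR or DESeq2, 6 with it and both libraries numbered 2 removed, and 4 with no filter, where Adamts3, Adamts14 and Adamtsl4 also passed higher and Adamts1 and Adamts9 lower. With no filter 309 genes passed higher and 934 lower, and with DESeq2 without the block 269 passed higher. Of the genes acting with the proteases, 4 were higher, and 11 with the block, 10 with DESeq2 and the block or with the block and both libraries numbered 2 removed, and 7 with DESeq2 alone. Those lower numbered 5, and 13 with the block in edgeR or DESeq2, 14 with the block and both libraries numbered 2 removed, and 8 with no filter. The causes were not tested.

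Leaving out 1 library at a time gave 88 to 156 genes higher (88 without YFP+ replicate 3, 96 without YFP- replicate 3), 339 to 521 lower (339 without YFP+ replicate 3), 1 to 2 members higher (2 without YFP- replicate 1, which added Adamtsl4) and 4 to 7 lower (4 without YFP+ replicate 1). The difference in the share of Adamdec1 ran from 0.26 to 0.288 percentage points, with an exact permutation p of 0.0571, the smallest that 3 against 4 allows. Estimates near 0 that changed sign were Adam9 (0.00 without YFP- replicate 4), Pcsk5 (-0.09 to 0.02, 0.02 without YFP+ replicate 3), Rhbdf1 (-0.08 to 0.02, 0.02 without YFP+ replicate 4), Tspan5 (-0.13 to 0.09, -0.05 without YFP- replicate 1 and -0.13 without YFP+ replicate 4) and Tnfrsf1a (-0.05 to 0.07 over libraries left out, -0.00 with a filter of 1 CPM in 4 libraries, and -0.02 with both libraries numbered 2 removed, with or without the block). Intervals and tests cover these libraries only, and members under about 5 CPM rest on few counts.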
